A study of Mus musculus with 32 samples.

Results

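The TREM2-TYROBP signalling axis was followed through 7 genes, *Trem2*, *Tyrobp*, *Hcst*, *Syk*, *Plcg2*, *Pik3ap1* and *Inpp5d*, in microglia and spinal cord of SOD1G93A mice, a mouse model of amyotrophic lateral sclerosis. They were picked by gene symbol as known members of the pathway, with earlier results of these data in view, by a rule that uses no measured value. All 7 were found by Ensembl identifier among the 74021 genes of the LAG-3-sorted microglia table, the 74016 genes of the stage table and the 74021 genes of the spinal cord table, and all 7 passed the filter on low counts in each table. The study asked what LAG-3, an inhibitory surface receptor, does in microglia during the disease.

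The series held 32 RNA-seq libraries. The LAG-3-sorted table had 4 libraries of WT microglia, from littermates without the transgene whose age is not given in the sources used here, and 5 libraries each of LAG-3-low and of LAG-3-high cells, gated from P140 SOD1G93A mice by the staining of LAG-3 on the cell surface. The stage table had 3 libraries each of P120 SOD1G93A/LAG-3+/+, P120 SOD1G93A/LAG-3-/-, P140 SOD1G93A/LAG-3+/+ and P140 SOD1G93A/LAG-3-/- microglia. The spinal cord table had 3 libraries each of P140 SOD1G93A/LAG-3+/+ and P140 SOD1G93A/LAG-3-/- lumbar cord. Every group except WT carries the human mutant SOD1 transgene, and the LAG-3-/- mice carry the B6.129S6(Cg)-Lag3tm1Doi/J disruption in the germline, so that every cell type lacks the intact gene. Microglia were sorted as CD11b+/CD45int cells from lumbar cord, and their libraries were made with a SMART-seq kit, which amplifies cDNA from little RNA. The labels tie no library to a particular mouse, so p-values measure the spread between these libraries, which may be technical in part.

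TREM2 is a receptor of microglia and other myeloid cells for lipids, lipoproteins and cell debris. It has no signalling tail of its own and passes its signal on through the adaptor TYROBP (DAP12), whose ITAM motif recruits the kinase SYK, while the related adaptor HCST (DAP10) recruits PI3-kinase. SYK activates phospholipase C-gamma-2 (*Plcg2*), PIK3AP1 (BCAP) links receptors to PI3-kinase, and the lipid phosphatase SHIP1 (*Inpp5d*) removes the product of PI3-kinase and dampens the response. In mouse models of neurodegeneration, this axis is known for its part in the disease-associated state of microglia.

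The 7 genes lie on 6 chromosomes of GRCm39, none of them on that of *Lag3*. *Trem2* (ENSMUSG00000023992) occupies 48653429 to 48661175 on the plus strand of chromosome 17. *Tyrobp* (ENSMUSG00000030579, 30113170 to 30117010, plus strand) and *Hcst* (ENSMUSG00000064109, 30117135 to 30119297, minus strand) are neighbours on chromosome 7 that converge with 124 bases between their ends. *Syk* (ENSMUSG00000021457) lies on chromosome 13 from 52736696 to 52802828, *Plcg2* (ENSMUSG00000034330) on chromosome 8 from 118224988 to 118361881 and *Inpp5d* (ENSMUSG00000026288) on chromosome 1 from 87547989 to 87648230, all on the plus strand. *Pik3ap1* (ENSMUSG00000025017) lies on the minus strand of chromosome 19 from 41260816 to 41373548. Their longest protein-coding transcripts in GENCODE fall into 2 classes. The receptor and both adaptors are short, with 1143 bases for *Trem2*, 609 for *Tyrobp* and 460 for *Hcst*. The kinase, the phospholipase, the PI3-kinase adaptor and the phosphatase are long, with 5973 bases for *Syk*, 4340 for *Plcg2*, 4482 for *Pik3ap1* and 4937 for *Inpp5d*. This split matters below, because in several comparisons genes of the same length class moved together across the whole transcriptome.

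The promoter of *Trem2* is shown because it belongs to the receptor of the axis, the gene called between the LAG-3 fractions below, and because its proximal end holds the purine-rich core GAGGAA, here on the other strand, that ETS factors of the PU.1 type, which act in myeloid cells, can bind. RefSeq promoter windows of 250 bases before the start were available for 6 of the 7 genes and were placed on GRCm39 by exact match. The window of *Trem2*, on the plus strand at chr17:48653179-48653428, reads as follows, with the motif in capitals.
Trem2: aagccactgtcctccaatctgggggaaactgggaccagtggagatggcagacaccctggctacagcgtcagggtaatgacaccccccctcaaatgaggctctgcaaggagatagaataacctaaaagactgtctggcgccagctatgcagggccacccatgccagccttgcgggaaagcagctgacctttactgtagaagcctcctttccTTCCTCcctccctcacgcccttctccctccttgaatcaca

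The 6 genes had 7 windows, 2 of them of *Syk*. Of these windows, 4 held GAGGAA on either strand, each of another gene, against 23.3% of 32851 RefSeq windows of the same length. In *Trem2* the motif stood 40 to 35 bases before the start and in *Inpp5d* 20 to 15 bases before it. In *Pik3ap1* it stood 11 to 6 bases and, in 1 of 2 windows of *Syk*, 9 to 4 bases before the start. *Plcg2* and *Hcst* held none in these windows. The E-box CACGTG, which reads the same on both strands and was searched because bHLH factors of lysosomal genes can bind it, occurred in the windows of *Plcg2* and *Pik3ap1* and in 6.02% of all windows. Starts are those of RefSeq, which lie 45 bases downstream of the GENCODE gene start in *Inpp5d*, 26 in *Plcg2* and 7 in *Pik3ap1*, and 14222 bases downstream of it for the *Syk* window with the motif. The bases around the matches are set out here to show their place before these RefSeq starts, each 5′ to 3′ on the strand of the gene with the motif in capitals. They lie at chr1:87548004-87548029 (*Inpp5d*, plus), chr19:41373542-41373562 (*Pik3ap1*, minus), chr13:52750899-52750917 (*Syk*, plus) and chr8:118224984-118225009 (*Plcg2*, plus). A match describes the sequence alone.
Inpp5d: tttctataatGAGGAAgttctgtgca
Pik3ap1: tgcccggcagGAGGAAgcgcc
Syk: ctgacactttGAGGAAaag
Plcg2: cccgaggagtCACGTGgcgcggccgc

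Library totals ranged from 9403286 to 22850356 counts in the LAG-3-sorted table, from 23981240 to 49512341 in the stage table and from 19429873 to 26994340 in the spinal cord table. Levels are given as CPM, counts divided by the library total after scaling with edgeR's TMM factors, within each table. *Lag3* was at 34.8 to 57.8 CPM in LAG-3-low and 146 to 195 CPM in LAG-3-high libraries. In LAG-3+/+ microglia it was at 53.4 to 62.9 CPM at P120 and lower, at 24.5 to 28.1 CPM, at P140, without overlap. LAG-3-/- microglia held 0.0239 to 0.462 CPM of it. Cord held 43.4 to 74.5 CPM in LAG-3+/+ against 5.50 to 5.72 CPM in LAG-3-/- libraries. All 8 microglia markers that could be matched, *Tmem119* and *P2ry12* among them, had counts in every library. The 11 neutrophil markers summed to 6188 to 60431 CPM in WT and 25834 to 70812 CPM in LAG-3-low libraries, although CD11b+/CD45int cells had been gated, and to only 1.17 to 6.23 CPM in LAG-3-high libraries. In the stage table that sum was 2015 to 2805 CPM in P120 LAG-3+/+ and 0.284 to 3.78 CPM in P120 LAG-3-/- microglia. At P140 it was 2965, 481 and 0.206 CPM in LAG-3+/+ and 0.87, 824 and 5170 CPM in LAG-3-/- replicates 1 to 3, and its part in the members' levels was not tested. A length index was computed for each library, as the median log2 deviation from the mean of coding genes with transcripts under 1 kb minus that of coding genes with transcripts of at least 4 kb. It spread from -0.76 to 2.32 among WT libraries, with 1.22 in replicate 1 and 2.32 in replicate 4, and it was 0.83 to 1.73 in P140 LAG-3+/+ microglia against -0.72 to -0.48 in P120 LAG-3+/+ microglia. In cord it was -0.60 to -0.50 with and 0.15 to 0.88 without *Lag3*.

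In microglia, *Tyrobp* was the most abundant of the 7 transcripts per length of transcript and *Syk* the least in each of the 7 groups. In LAG-3-high microglia, the level was 5165 ± 623 CPM per kb (SD, n = 5) for *Tyrobp*, 1750 ± 78.5 for *Trem2*, 108 ± 11.02 for *Inpp5d*, 53.7 ± 9.85 for *Hcst*, 53.4 ± 7.53 for *Pik3ap1*, 39.4 ± 4.26 for *Plcg2* and 11.1 ± 2.18 for *Syk*. Within that order *Hcst* and *Pik3ap1* did not differ beyond their spread. In P140 LAG-3+/+ microglia the order began in the same way, with *Tyrobp* at 7228 ± 1584 CPM per kb (SD, n = 3) and *Trem2* at 2145 ± 468. *Hcst* came next at 56.7 ± 9.80 CPM per kb, above *Inpp5d* at 28.1 ± 3.60, and *Syk* again last at 2.61 ± 0.912. *Pik3ap1*, at 15.3 ± 12.2 CPM per kb, overlapped with its neighbours *Inpp5d* and *Plcg2* (8.17 ± 2.07). The ratio of *Tyrobp* to *Trem2* per kb was 2.41 to 3.57 in LAG-3-low, 2.55 to 3.32 in LAG-3-high and 1.93 to 3.48 in P120 microglia. The adaptor and its receptor thus kept overlapping ratios where both levels differed between the LAG-3 fractions. Among WT libraries the ratio spread from 1.51 to 4.88, the highest in replicate 4.

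The first question was how the axis differs between microglia with much and with little LAG-3 on their surface. *Trem2* was higher in LAG-3-high microglia, by 2.24-fold, and *Tyrobp* lay 2.29-fold higher without passing the test across all genes. *Syk* was 1.72-fold lower in the same fraction, under the minimum fold. *Hcst*, *Plcg2*, *Pik3ap1* and *Inpp5d* overlapped between the fractions. A gene counted as called here where its adjusted p was under 0.1 and its log2 fold change passed 1 in size. Of the 7 genes, 1 was called, higher in LAG-3-high microglia, where 3.49% of all genes tested were called, 0.818% higher and 2.67% lower. At an adjusted p under 0.1 alone, 2 of the 7 passed, against 4.39% of all genes. The fractions did not overlap for 2 genes that were higher and 1 that was lower, against 8.95% and 6.52% of all genes and 15.5% in either direction.

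**Figure D1:**
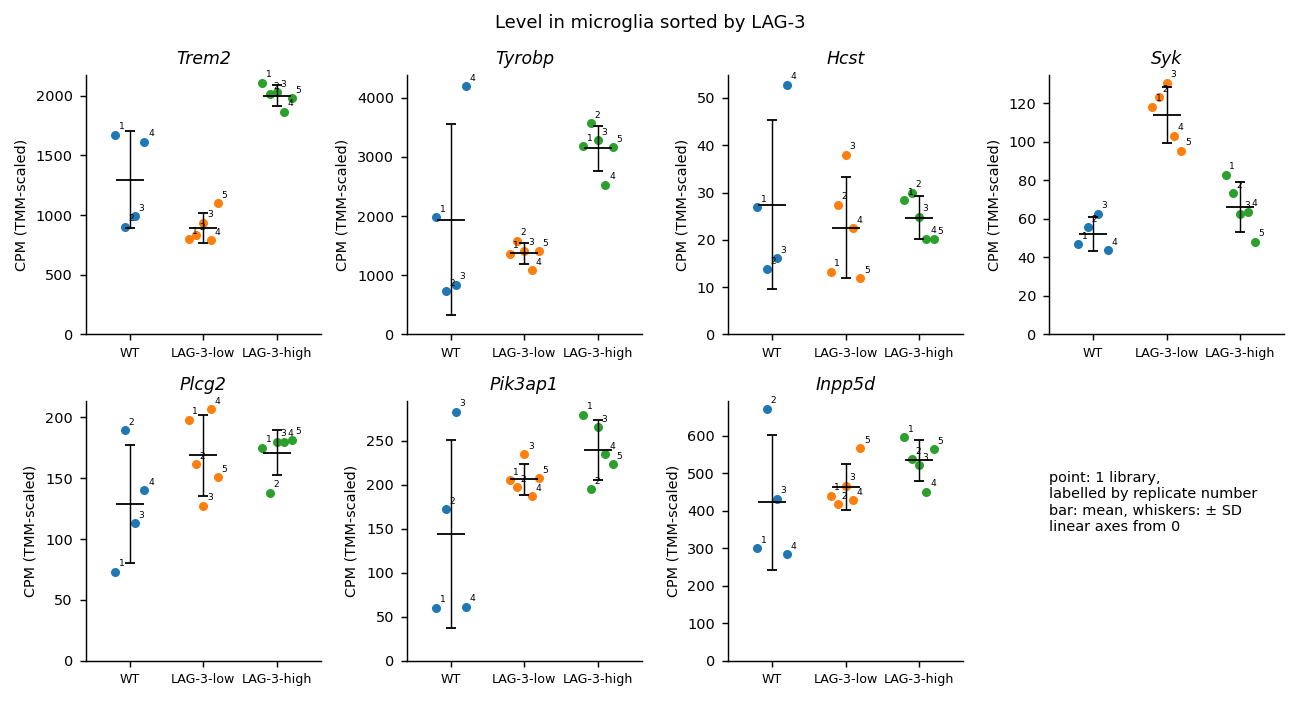
Level of the 7 genes (CPM after TMM scaling, linear axes from 0) in WT microglia and both LAG-3 fractions; each point is a library with its replicate number, bars are means and whiskers the SD. The 5 LAG-3-high libraries lie between 1865 and 2111 CPM for *Trem2*, above every other library, and the 5 LAG-3-low libraries lie above the rest for *Syk*.

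*Trem2* was at 800.3, 834, 936, 790.3 and 1099 CPM in the LAG-3-low libraries. It reached 2111, 2015, 2032, 1865 and 1978 CPM in the LAG-3-high libraries. The LAG-3-high libraries were all above the LAG-3-low ones and differed little among themselves, with a coefficient of variation of 4.49%. The log2 fold change was 1.17 (SE 0.18, edgeR adjusted p = 0.00293, two-sided exact permutation p = 0.00794, the smallest these group sizes allow). The exact test treats the libraries as unpaired, and whether both fractions came from the same mice is not given in the sources used here. Leaving out each of the 10 libraries in turn gave 1.12 to 1.25, called every time. Corrected for length and GC of the transcripts, it was 1.02 (edgeR adjusted p = 0.00201) and still called, as were 3.66% of all genes. Without TMM factors, which moved the median of all genes by -0.38, it was 0.79 (edgeR adjusted p = 0.0119), and *Syk*, at -1.16, took the place of *Trem2* as the gene called.

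*Tyrobp*, the adaptor on which TREM2 depends, was at 1365, 1587, 1414, 1090.3 and 1410.0 CPM in LAG-3-low libraries. In LAG-3-high libraries it was at 3183, 3567, 3281, 2530.3 and 3166 CPM. The fractions did not overlap, and the exact permutation p was again 0.00794 (two-sided). In the model of all 14 libraries, the log2 fold change of 1.20 (SE 0.37) had an edgeR adjusted p of 0.121, with the wide spread of WT libraries in the same fit. It was called when only the 2 fractions entered the fit, where 9.9% of all genes were called. With the length and GC correction, its log2 fold change in the model of all 14 libraries was 0.85 (edgeR adjusted p = 0.00248), under the minimum fold. *Hcst*, the other adaptor, stayed at 11.9 to 38.0 CPM in LAG-3-low and 20.2 to 30.0 CPM in LAG-3-high libraries. The ratio of *Tyrobp* to *Hcst* per kb was 84.7 to 119 in LAG-3-high and 28.1 to 89.5 in LAG-3-low microglia.

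*Syk*, the kinase that docks on the phosphorylated ITAM, ran the other way. It was at 118, 123, 131, 103 and 95.4 CPM in LAG-3-low and at 82.9, 73.4, 62.7, 63.7 and 48.1 CPM in LAG-3-high libraries. Every LAG-3-low library exceeded every LAG-3-high library (exact permutation p = 0.00794, two-sided). The log2 fold change was -0.79 (SE 0.20, edgeR adjusted p = 0.0491), and -0.71 (edgeR adjusted p = 0.0700) with the length and GC correction. Relative to the phosphatase *Inpp5d*, *Syk* was at 0.139 to 0.244 per kb in LAG-3-low and at 0.0705 to 0.117 in LAG-3-high microglia. Neutrophil markers moved with the fractions as given above, as did the 8 markers of monocytes or border macrophages, at 258 to 722 CPM in LAG-3-low and 2.54 to 11.6 CPM in LAG-3-high libraries, and their part in the levels of *Syk* was not tested. The microglia markers summed to 18135 to 27965 CPM in LAG-3-low and 21703 to 22533 CPM in LAG-3-high libraries, which overlap.

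The 3 remaining genes differed little between the fractions. *Plcg2* was at 127 to 207 CPM in LAG-3-low and 138 to 182 CPM in LAG-3-high libraries, a log2 fold change of 0.02 with a 95% interval of -0.44 to 0.47. *Pik3ap1* was at 187 to 234 CPM and 195 to 279 CPM, a log2 fold change of 0.21 (-0.47 to 0.90). *Inpp5d* was at 417 to 567 CPM and 451 to 596 CPM, a log2 fold change of 0.20 (-0.21 to 0.62). These intervals do not show that the levels were alike, and that of *Pik3ap1* reaches 0.90.

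The second question was how both fractions differ from WT microglia. These comparisons share the 4 WT libraries, which spread widely. *Trem2* was at 1675, 902, 989 and 1616 CPM in WT libraries, below every LAG-3-high library and overlapping with the LAG-3-low ones. The log2 fold change was 0.63 (SE 0.19, edgeR adjusted p = 0.0327) for LAG-3-high and -0.54 (SE 0.19, adjusted p = 0.0645) for LAG-3-low microglia, both under the minimum fold. After correction for length and GC of the transcripts, the latter was -0.02 and the former 0.997 (edgeR adjusted p = 0.000953). In the comparison of LAG-3-high with WT, 0 of the 7 genes were called by edgeR, which called 27% of all genes tested, or by DESeq2, which called 33.2%. An unadjusted p under 0.05 was found for 1 of the 7 and 35.7% of all genes, and 1 lay without overlap above WT, against 12.4% of all genes.

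*Syk* was the gene called between LAG-3-low and WT microglia, where 21.9% of all genes were called, 10.9% of all genes higher and 11% lower. WT libraries held 46.8, 55.7, 62.6 and 43.6 CPM of it, all below the LAG-3-low libraries, a separation that 9.78% of all genes showed, and overlapping with the LAG-3-high ones. Its level was 2.19-fold higher in LAG-3-low microglia (log2 fold change 1.13, SE 0.22, edgeR adjusted p = 0.00409, two-sided exact permutation p = 0.00794). It was called with each of the 9 libraries left out in turn. Corrected for length and GC, its log2 fold change was 0.56 (edgeR adjusted p = 0.0991), under the minimum fold.

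*Tyrobp* in WT libraries was at 1986, 727, 842 and 4199 CPM, so that replicate 4 exceeded every LAG-3-high library. Its log2 fold change against WT was 0.70 (edgeR adjusted p = 0.223) in LAG-3-high and -0.50 (adjusted p = 0.406) in LAG-3-low microglia. Without WT replicate 4 these were 1.42, which passed both thresholds (adjusted p = 0.00397), and 0.22. After the same correction, they were 1.66 (edgeR adjusted p = 4.36e-06) and 0.81 (adjusted p = 0.00259). *Pik3ap1* was at 60.0, 172, 283 and 61.3 CPM in WT libraries, the highest in replicate 3. Without that library it was called higher in both fractions, with log2 fold changes of 1.30 and 1.08. *Plcg2* (73.3 to 189 CPM), *Inpp5d* (284 to 671 CPM) and *Hcst* (13.8 to 52.8 CPM) overlapped with both fractions.

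The pathway around the axis was read from 6 lists of 64 genes. Between the fractions, 60 could be tested. LAG-3-high cells had 1 of them called higher and 8 called lower, where 0.818% and 2.67% of all genes were. Of 10 other receptors that signal through TYROBP or HCST, *Cd200r4*, an activating member of the CD200 receptor family, was the one called higher, with 74.5 ± 14.4 CPM in the LAG-3-high fraction against 20.9 ± 9.35 CPM (SD, n = 5 in both) (edgeR adjusted p = 0.0185). *Trem3*, a receptor of the same cluster as *Trem2*, was at 104 ± 36.9 CPM in LAG-3-low libraries and had 0 counts in LAG-3-high libraries (edgeR adjusted p = 0.00039), and *Sirpb1b*, an activating SIRP receptor, was at 11.99 ± 5.19 CPM and at 0 (adjusted p = 0.00297). Among 17 adaptors and scaffolds, *Dok3*, which restrains ITAM signals, was at 15.5 ± 1.28 CPM in LAG-3-high against 90.4 ± 27.8 CPM in LAG-3-low libraries (edgeR adjusted p = 0.000279), and the exchange factor *Vav3* was at 0 against 11.8 ± 8.92 CPM. Of the phosphatases and ubiquitin ligases, *Ubash3a* was called lower. These genes moved with the sums of the neutrophil and of the monocyte or border macrophage markers, whose part in them was not tested. None of the 12 PI3-kinase, AKT and phospholipase partners and none of the 7 ligands and sheddases of TREM2 was called.

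Against WT microglia, the LAG-3-high fraction had 11 of the 60 genes called higher and 9 lower, where 12.1% and 14.9% of all genes were, and the LAG-3-low fraction 14 higher and 3 lower, where 10.9% and 11% were. *Apoe*, a lipoprotein that TREM2 binds, reached 87378 ± 10194 CPM in the LAG-3-high fraction, 27402 ± 5744 CPM in the LAG-3-low fraction (SD, n = 5 in both) and 1768 ± 1744 CPM in WT microglia (SD, n = 4). *Lgals3*, a lectin reported to bind TREM2, was at 649.7 ± 109.9, 528 ± 159 and 71.0 ± 31.9 CPM in the same order. Both were called against WT in each fraction, as were *Cd200r4*, which had 0 counts in WT libraries, and the Src family kinase *Fgr*, at 198 ± 16.2, 164 ± 52.8 and 19.1 ± 12.5 CPM. The kinase *Src*, the adaptor *Sh3bp2* and the catalytic subunit *Pik3cb* were also called higher in both fractions, and the catalytic subunit *Pik3ca* and the receptor *Siglech*, which pairs with TYROBP, lower. The ITAM adaptor *Fcer1g* was called lower in LAG-3-low microglia, at 1073 ± 48.7 against 2388 ± 1766 CPM, a difference that was -0.04 on the log2 scale after the length and GC correction. *Cd300lb*, another activating receptor, was called higher in both fractions, at 127 ± 13.5, 126 ± 47.8 and 9.87 ± 12.9 CPM. Further calls were *Cbl*, *Dok3*, *Pik3r1*, *Trem3* and *Ubash3a*, lower in LAG-3-high microglia, and *Sirpb1b*, *Vav3* and *Akt2*, higher in LAG-3-low microglia. Of these, *Dok3*, *Trem3*, *Ubash3a*, *Sirpb1b* and *Vav3* were also called between the fractions, as given above, and *Cbl*, *Pik3r1* and *Akt2* were not (edgeR adjusted p 0.248 to 0.716).

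The genes whose levels over the 14 libraries were most like those of *Trem2*, by the root mean square difference of centred log2 CPM over 8917 genes, were *C1qb* (0.12), *C1qc* (0.12), *Ctss* (0.17), *Pon3* (0.20) and *Eef1a1* (0.21). *Tyrobp* ranked 245th, at 0.42. Those most like *Tyrobp* were *Atox1*, *Rpl41*, *mt-Co2*, *Rpl37a* and *Gm70676* (0.19 to 0.26). These measures rest on the same libraries and carry their differences in depth and length index.

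The third question was how the axis changes from P120 to P140 in microglia with intact *Lag3*. Here and for the genotypes in this table, a call needed only an adjusted p under 0.1. All 7 genes passed, where 27.4% of all genes tested did. The receptor and both adaptors rose and the kinase, the phospholipase, the PI3-kinase adaptor and the phosphatase fell, and in none of them did the stages overlap, which held for 42.2% of all genes. This split followed transcript length. Over all coding genes of at least 10 CPM, the median log2 fold change was 1.08 for transcripts under 1 kb (213 genes), 0.97 for 1 to 2 kb (969 genes), 0.37 for 2 to 4 kb (2936 genes) and -0.85 for 4 kb or more (4078 genes).

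**Figure D2:**
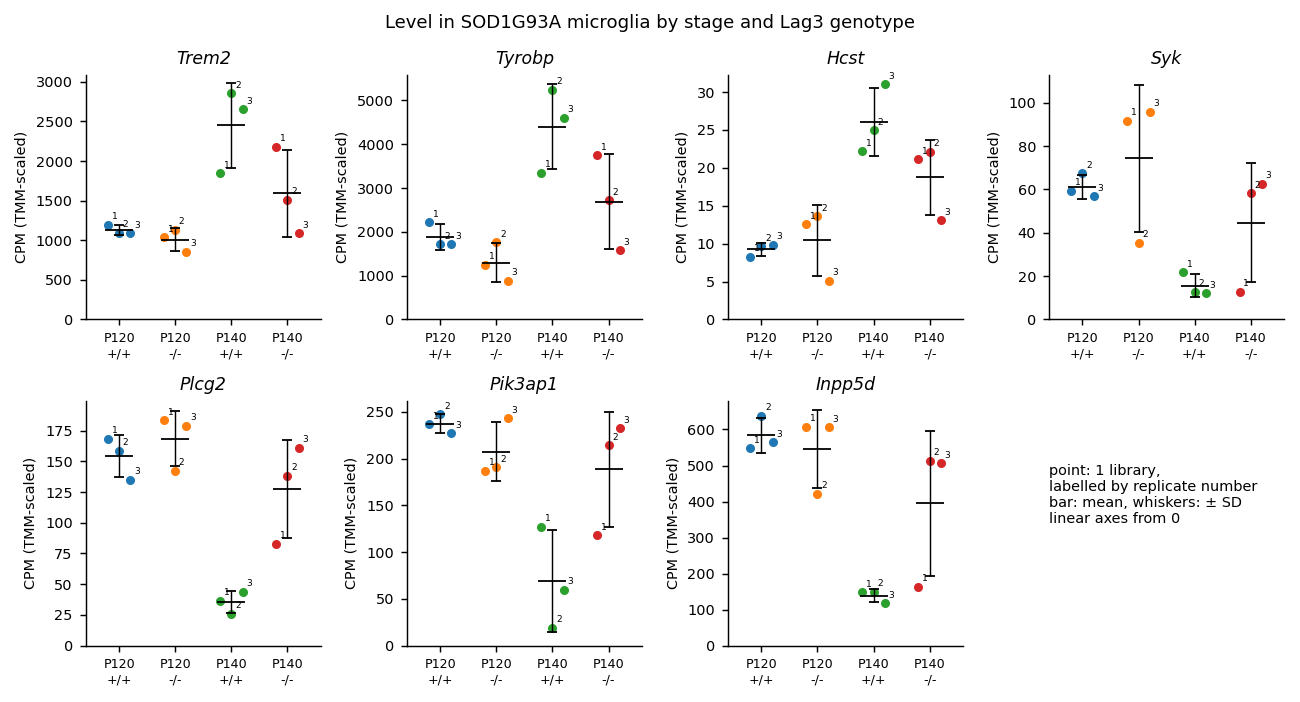
Level of the 7 genes (CPM after TMM scaling, linear axes from 0) in microglia by stage and *Lag3* genotype; each point is a library with its replicate number, bars are means and whiskers the SD (n = 3). The P140 LAG-3+/+ libraries stand above the P120 ones for *Trem2*, *Tyrobp* and *Hcst* and below them for the other 4 genes. Replicate 1 of the P140 LAG-3-/- group lies nearest to the P140 LAG-3+/+ libraries for every gene but *Hcst*.

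*Trem2* was at 1199, 1096 and 1085 CPM at P120 and at 1845, 2856 and 2654 CPM at P140. *Tyrobp* was at 2224, 1717 and 1717 CPM at P120 and at 3352, 5249.6 and 4605 CPM at P140. *Hcst* was at 8.25, 9.63 and 9.88 CPM at P120 and at 22.2, 24.97 and 31.0 CPM at P140. All 3 rose by more than the spread within a stage, with log2 fold changes of 1.12 (SE 0.25, edgeR adjusted p = 0.0128), 1.22 (SE 0.33, adjusted p = 0.0266) and 1.49 (SE 0.40, adjusted p = 0.0265). Corrected for length and GC, they were 0.19 (edgeR adjusted p = 0.343), 0.00 (adjusted p = 0.999) and 0.43 (adjusted p = 0.450), and the 3 rises were no longer called.

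*Plcg2*, which makes the second messengers downstream of SYK, was at 168, 159 and 135 CPM at P120 and at 36.5, 26.0 and 43.9 CPM at P140. *Inpp5d* was at 549, 639 and 565 CPM at P120 and at 149, 149 and 118 CPM at P140. Both fell more than 4-fold, by 4.34-fold (log2 fold change -2.12, SE 0.28, edgeR adjusted p = 0.00497) and 4.21-fold (-2.07, SE 0.36, adjusted p = 0.00636). The same fits with the correction gave -1.73 (edgeR adjusted p = 0.00569) and -1.53 (adjusted p = 0.00964), which were still called. The correction did not bring the long class to 0. Coding genes of 4 kb or more kept a median log2 fold change of -0.34, with 24.1% called lower and 15.9% higher. Over all genes tested the corrected median was -0.63.

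*Syk* was at 59.4, 67.4 and 57.0 CPM at P120 and at 21.8, 12.7 and 12.1 CPM at P140. *Pik3ap1* was at 237, 248 and 227 CPM at P120 and at 127, 19.2 and 59.7 CPM at P140. The P140 libraries of *Pik3ap1* thus differed among themselves by more than 6-fold, yet all lay below P120. The log2 fold changes were -1.98 (SE 0.55, edgeR adjusted p = 0.0301) for *Syk* and -1.79 (SE 0.51, adjusted p = 0.0341) for *Pik3ap1*. With the correction they were -1.17 (edgeR adjusted p = 0.103) and -1.57 (adjusted p = 0.0582), so that *Syk* was no longer called. Without P140 replicate 3 neither gene was called (edgeR adjusted p = 0.101 for *Syk* and 0.106 for *Pik3ap1*). The ratio of *Syk* to *Inpp5d* per kb was 0.0834 to 0.0895 at P120 and 0.0705 to 0.121 at P140, and that of *Plcg2* to *Inpp5d* 0.272 to 0.349 and 0.198 to 0.422, overlapping in both.

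**Figure D3:**
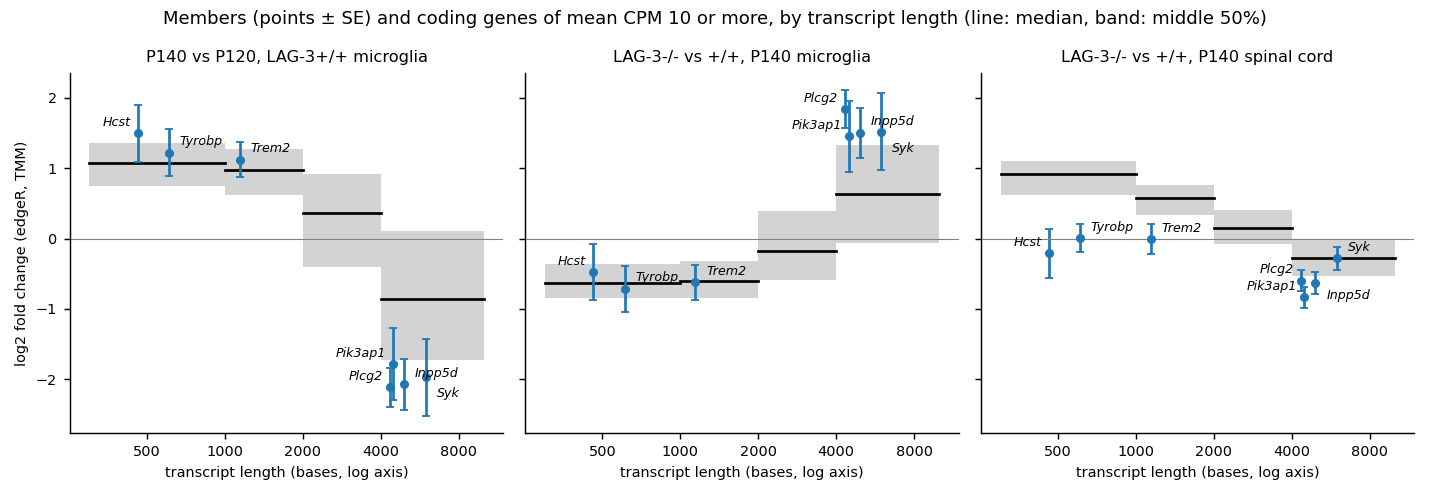
Log2 fold change (edgeR, TMM scaling) against transcript length (log axis) in 3 comparisons; points are the 7 genes with their SE, black lines the median and grey bands the middle 50% of coding genes of at least 10 CPM in 4 length classes. In microglia *Trem2* and *Tyrobp* lie within the band of their class, *Hcst* above it with stage (1.49), and the 4 long genes past the edge of theirs, while in cord *Trem2* and *Tyrobp* stay near 0 where their class rose.

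Of the 57 other pathway genes tested, 9 rose and 18 fell from P120 to P140 in LAG-3+/+ microglia, against 11.9% and 15.5% of all genes. Of 12 PI3-kinase, AKT and phospholipase partners, 7 fell and none rose. *Pik3cg*, a catalytic subunit of leukocytes, went from 206 ± 25.2 to 15.8 ± 7.51 CPM (SD, n = 3; edgeR adjusted p = 0.00565) and its regulatory subunit *Pik3r5* from 56.3 ± 6.37 to 11.1 ± 3.78 CPM (edgeR adjusted p = 0.00618). The sheddases *Adam10*, at 358 ± 23.1 and 75.5 ± 20.8 CPM, and *Adam17*, at 273 ± 12.2 and 88.7 ± 49.9 CPM, which cut TREM2 from the surface, fell too. The ligands *Apoe* (18246 ± 5409 to 75741 ± 26371 CPM) and *Lgals3* (208 ± 15.1 to 800.1 ± 319 CPM) rose, as did the receptors *Clec5a* and *Cd300lb*, *Fcer1g*, *Fgr*, the adaptors *Lat2* and *Blnk*, and the phosphatase *Ptpn6*. *Fyn*, *Src*, *Cbl*, *Malt1*, *Ubash3b* and *Inppl1* fell. After the length and GC correction 6 rose and 14 fell, against 5.6% and 17.3% of all genes. *Pik3cg* (-3.21), *Pik3r5* (-1.74), *Adam10* (-2.22), *Adam17* (-1.52), *Malt1*, *Inppl1*, *Apoe* (1.97), *Clec5a*, *Fgr* and *Lat2* were still called, and *Fcer1g* (-0.06), *Lgals3* (0.71), *Cd300lb*, *Blnk*, *Ptpn6*, *Fyn*, *Src*, *Cbl* and *Ubash3b* were not.

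In the stage table, the genes most like *Trem2* over the 12 libraries were *Mpc1* (root mean square difference 0.0632), *Snrpb* (0.0736), *Pdia3* (0.0910), *Fuca2* (0.0922) and *Gpx4* (0.101), of 8674 genes. Those most like *Tyrobp* were *Elob*, *Rpl35rt*, *Uqcr10*, *Atp5f1e* and *Ndufc2* (0.0613 to 0.126). *Trem2* and *Tyrobp* differed from each other by 0.252.

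The fourth question was what loss of *Lag3* does to the axis at each stage. At P120, edgeR and DESeq2 called 0 of the 7 genes, where edgeR called 0.0107% of all genes tested. None of the 7 had an unadjusted p under 0.05, against 2.95% of all genes, and all overlapped between the genotypes. *Trem2* was at 1038, 1134 and 854 CPM and *Tyrobp* at 1248, 1758 and 879.8 CPM in LAG-3-/- microglia, with log2 fold changes of -0.16 (95% interval -0.65 to 0.33) and -0.54 (-1.18 to 0.10). *Plcg2* was at 142 to 184 CPM and *Inpp5d* at 422 to 608 CPM there. *Syk* was at 91.7, 35.4 and 95.9 CPM, so that replicate 2 lay below and the others above the LAG-3+/+ range.

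At P140, *Plcg2* and *Inpp5d* were higher in LAG-3-/- microglia, by 3.59-fold and 2.84-fold. These 2 of the 7 genes were called, where 10.2% of all genes tested were called, 7.22% higher and 3% lower. Of the 7, 5 had an unadjusted p under 0.05, against 24.1% of all genes. The genotypes did not overlap for 2 genes that were higher and 1 that was lower, against 12.2% and 8.92% of all genes. *Plcg2* was at 83.0, 138 and 161 CPM in LAG-3-/- against 36.5, 26.0 and 43.9 CPM in LAG-3+/+ microglia, without overlap (log2 fold change 1.84, SE 0.27, edgeR adjusted p = 0.0172). *Inpp5d* was at 164, 513 and 507 CPM against 149, 149 and 118 CPM (1.51, SE 0.36, adjusted p = 0.0440), also without overlap, with replicate 1 close to the LAG-3+/+ libraries. Both were still called after that correction, at 1.54 (edgeR adjusted p = 0.0223) and 1.07 (adjusted p = 0.0695). In the corrected fit the median log2 fold change was 0.46 over all genes tested. It was 0.30 for coding genes of 4 kb or more, of which 11.5% were called higher and 3.49% lower. *Plcg2* was called with each of the 6 libraries left out in turn. *Inpp5d* lost its call without LAG-3+/+ replicate 2 or 3 or LAG-3-/- replicate 2 or 3 (edgeR adjusted p 0.110 to 0.188). Neither gene was called in a fit of these 6 libraries alone, but that fit called 0 of the 15091 genes it tested.

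*Syk* and *Pik3ap1* lay higher in 2 of 3 LAG-3-/- libraries without being called. *Syk* was at 12.9, 58.3 and 62.7 CPM (log2 fold change 1.52, SE 0.54, edgeR adjusted p = 0.125) and *Pik3ap1* at 118, 214 and 233 CPM (1.45, SE 0.51, adjusted p = 0.119). The receptor and its adaptor pointed the other way, with *Trem2* at 2182, 1513 and 1092 CPM and *Tyrobp* at 3756, 2719 and 1582 CPM. Their log2 fold changes were -0.62 (SE 0.25, edgeR adjusted p = 0.163) and -0.71 (SE 0.33, adjusted p = 0.210). *Hcst* was at 13.1 to 22.1 CPM, just under the 22.2 CPM of the lowest LAG-3+/+ library. Length classes moved with the genotype as well, with a median log2 fold change of -0.63 for coding transcripts under 1 kb, -0.60 for 1 to 2 kb and 0.63 for 4 kb or more. With the correction *Trem2* was at 0.03 and *Tyrobp* at 0.08.

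How many genes were called at P140 depended on single libraries and on the fit. Replicate 1 of the LAG-3-/- group lay among the LAG-3+/+ libraries for *Trem2*, *Tyrobp*, *Syk* and *Pik3ap1*, and its length index was 0.75 against -0.11 and -0.54 in the other LAG-3-/- libraries. Without it 6 of the 7 genes were called, all but *Hcst*, where 20.2% of all genes tested were called, with *Trem2* at -0.91 (edgeR adjusted p = 0.0221), *Tyrobp* at -1.03 (adjusted p = 0.0644) and *Syk* at 1.96 (adjusted p = 0.0116). DESeq2 called the same 6 genes with all libraries, and 25.8% of all genes. Without LAG-3+/+ replicate 1, which had the lowest length index of its group, 4 were called, against 12.7% of all genes. *Lag3* was at 0.158 CPM in LAG-3-/- replicate 1, within the range of its group.

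At P140, LAG-3-/- microglia had 10 of the 57 pathway genes tested called higher and 1 called lower, against 7.22% and 3% of all genes, and at P120 none by edgeR. Among 12 PI3-kinase, AKT and phospholipase partners, 6 were higher, such as *Pik3r5* at 56.4 ± 27.9 against 11.1 ± 3.78 CPM (SD, n = 3; edgeR adjusted p = 0.0217) and *Pik3cg* at 126 ± 84.8 against 15.8 ± 7.51 CPM (edgeR adjusted p = 0.0305). *Adam10* and *Adam17* were higher, at 256 ± 127 and 294 ± 72.6 CPM, as were the ubiquitin ligases *Cbl* and *Cblb*, and the adaptor *Lat2* was lower. After the length and GC correction 4 were called higher, *Pik3cg*, *Pik3r5*, *Adam10* and *Adam17*, and none lower, against 6.58% and 1.11% of all genes.

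In LAG-3-/- microglia the 7 genes overlapped between P120 and P140, and edgeR called 0 of them and 0% of all genes, although 8.88% of all genes had an unadjusted p under 0.05. Of the 7, *Trem2* (log2 fold change 0.66) and *Tyrobp* (1.05) had such a p, and DESeq2 called *Tyrobp* (adjusted p = 0.094). The interaction of genotype and stage, which compares the change from P120 to P140 between the genotypes, was called for 0 of the 7 genes by edgeR, where 0.171% of all genes were called, and 3 had an unadjusted p under 0.05, against 13.6% of all genes. The interaction was 1.72 (SE 0.38, edgeR adjusted p = 0.176) for *Plcg2*, 1.60 (SE 0.50, adjusted p = 0.227) for *Inpp5d* and 1.65 (SE 0.71, adjusted p = 0.341) for *Pik3ap1* on the log2 scale. For *Trem2* it was -0.46 (95% interval -1.15 to 0.23) and for *Tyrobp* -0.17 (-1.07 to 0.73). DESeq2 called *Plcg2* and *Inpp5d*, and 8% of all genes. So did edgeR without replicate 1 of the P140 LAG-3-/- group (1.95 and 1.98), where 8.35% of all genes were called. Without LAG-3+/+ replicate 1 of that age, *Plcg2* and *Pik3ap1* were called, and 1.94% of all genes. These comparisons share their libraries, the P140 LAG-3+/+ group above all, so that the falls of *Plcg2* and *Inpp5d* with stage and their higher level in LAG-3-/- microglia rest on the same 3 libraries.

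The last comparison asked what loss of *Lag3* does to the axis in whole lumbar cord at P140. In bulk cord, fewer cells of a type and less RNA per cell cannot be told apart. *Pik3ap1*, *Inpp5d* and *Plcg2* were lower in LAG-3-/- cord, by 1.78-fold, 1.55-fold and 1.51-fold. For the receptor and its adaptor the genotypes overlapped in this fit, but both were lower after the length and GC correction given below. No member reached the minimum log2 fold change of 1 in edgeR or DESeq2, where 7.52% of all genes tested were called. At an adjusted p under 0.1 alone, 3 of the 7 passed, all lower, against 23.9% of all genes lower and 47.1% in either direction, and the same 3 lay below without overlap, against 26.1% of all genes.

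**Figure D4:**
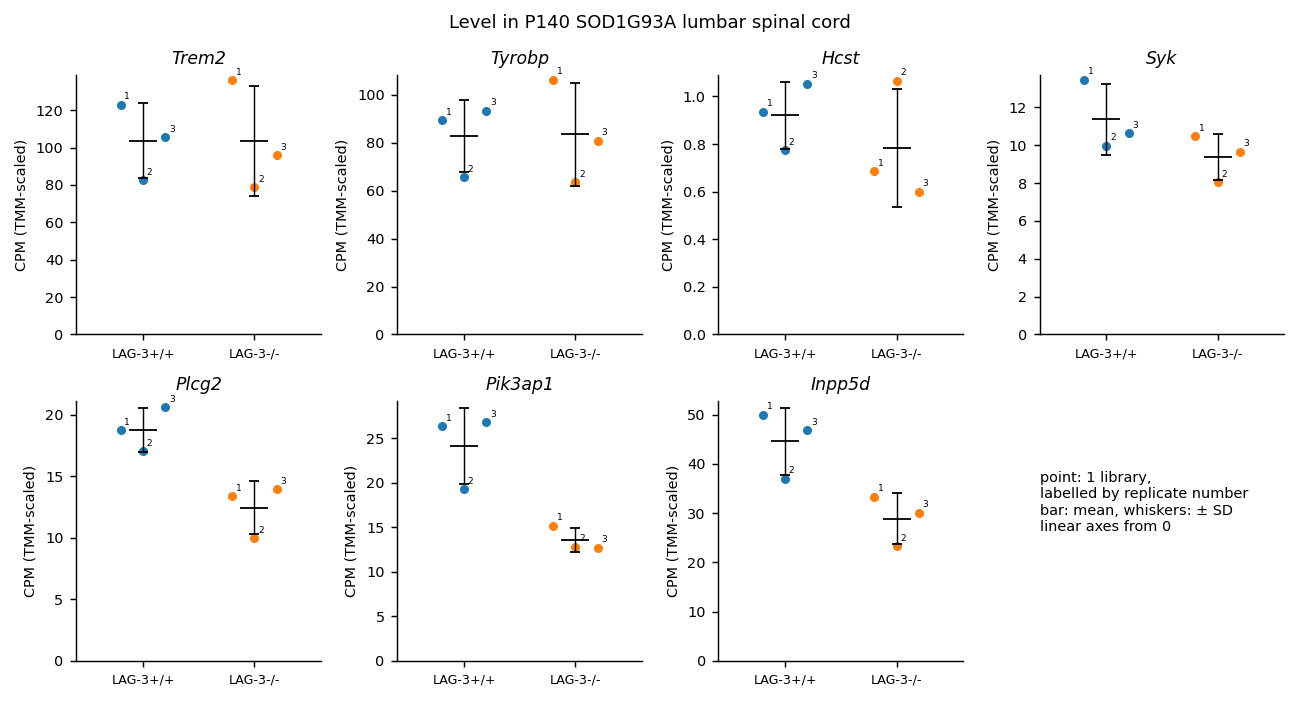
Level of the 7 genes (CPM after TMM scaling, linear axes from 0) in P140 lumbar cord by *Lag3* genotype; each point is a library with its replicate number, bars are means and whiskers the SD (n = 3). The LAG-3-/- libraries lie below the LAG-3+/+ ones for *Plcg2*, *Pik3ap1* and *Inpp5d* and overlap with them for the other 4 genes.

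*Pik3ap1* was at 26.4, 19.3 and 26.8 CPM in LAG-3+/+ and at 15.2, 12.8 and 12.7 CPM in LAG-3-/- cord (log2 fold change -0.84, SE 0.15, edgeR adjusted p = 0.00149). *Inpp5d* was at 49.99, 36.9 and 46.8 CPM and at 33.3, 23.2 and 30.1 CPM (-0.63, SE 0.15, adjusted p = 0.00840). *Plcg2* was at 18.7, 17.0 and 20.6 CPM and at 13.4, 9.98 and 13.96 CPM (-0.60, SE 0.15, adjusted p = 0.00872). In each of the 3 genes every LAG-3-/- library lay below every LAG-3+/+ library. In sorted microglia of the same age *Plcg2* and *Inpp5d* were higher without *Lag3*, as given above, in a table that was normalized separately.

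*Trem2* was at 123, 82.7 and 106 CPM in LAG-3+/+ and at 136, 78.7 and 95.9 CPM in LAG-3-/- cord. *Tyrobp* was at 89.4, 65.7 and 93.3 CPM and at 106, 63.4 and 80.9 CPM. Both overlapped fully, with log2 fold changes of -0.01 (95% interval -0.42 to 0.41) and 0.01 (-0.37 to 0.39). *Syk* was at 9.98 to 13.5 CPM and 8.05 to 10.47 CPM (log2 fold change -0.28, SE 0.17, edgeR adjusted p = 0.205). *Hcst* had 12 to 27 counts per library and a wide interval (log2 fold change -0.21, 95% interval -0.89 to 0.47). In cord the ratio of *Tyrobp* to *Trem2* per kb was 1.36 to 1.66, a range that also held WT microglia replicates 2 and 3.

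Length classes moved with the genotype here too, and in the direction opposite to that in P140 microglia. The median log2 fold change was 0.92 for coding transcripts under 1 kb (179 genes), 0.58 for 1 to 2 kb (953 genes) and -0.28 for 4 kb or more (5859 genes). *Trem2* and *Tyrobp*, at -0.01 and 0.01 in the fit without correction, thus lay below the median of their classes. After the length and GC correction they were lower in LAG-3-/- cord, *Trem2* at -0.83 (edgeR adjusted p = 0.0129) and *Tyrobp* at -1.06 (adjusted p = 0.0130), and *Hcst* at -1.44 (adjusted p = 0.0146). The 3 long genes changed little, with *Pik3ap1* at -0.83, *Plcg2* at -0.67 and *Inpp5d* at -0.60. In that fit 6 of the 7 genes were lower at an adjusted p under 0.1, against 20.7% of all genes, and *Tyrobp* and *Hcst* passed the fold minimum.

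**Figure D5:**
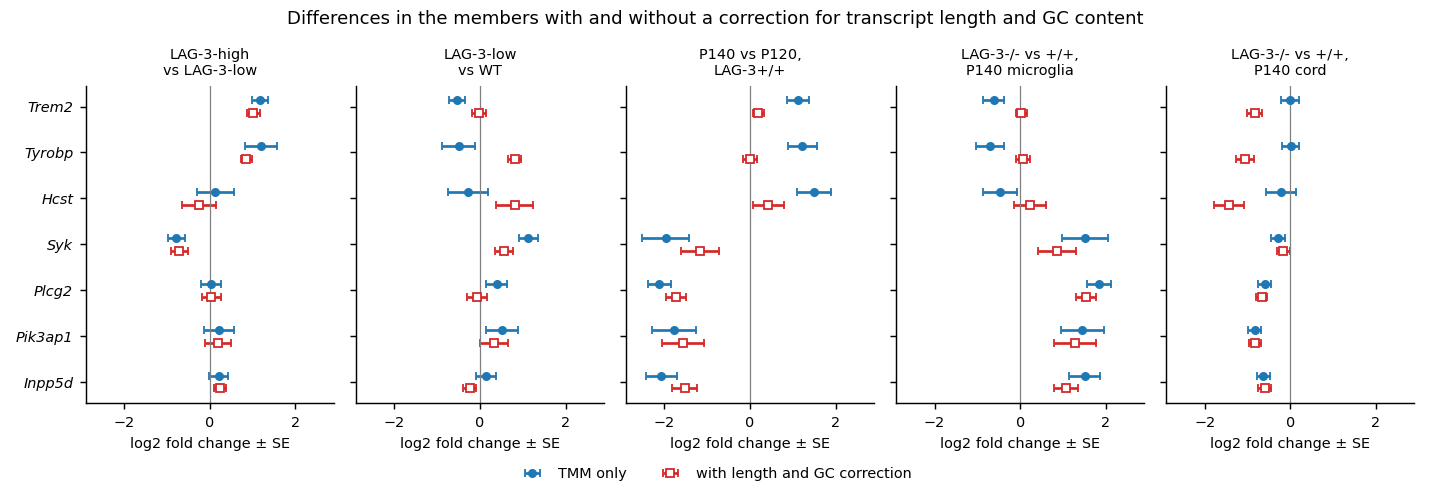
Log2 fold change with its SE for the 7 genes in 5 comparisons, from the fit with TMM factors alone (filled circles) and after correction for length and GC (open squares). The rises of *Trem2* and *Tyrobp* with stage shrink to 0.19 and 0.00, the difference of *Trem2* between the LAG-3 fractions stays at 1.02, and in cord *Trem2* moves from -0.01 to -0.83.

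Cell-type markers moved with the genotype in cord. The 8 microglia markers summed to 1196 to 1538 CPM in LAG-3+/+ and 787 to 1032 CPM in LAG-3-/- libraries, without overlap. The 4 oligodendrocyte markers summed to 15753 to 17011 CPM and 22394 to 27845 CPM, and the 4 astrocyte markers to 11108 to 13365 CPM and 6924 to 10643 CPM. As a share of the microglia markers, *Trem2* was 7.14% to 8.69% in LAG-3+/+ and 9.38% to 11.9% in LAG-3-/- cord, and *Tyrobp* 5.68% to 6.44% and 7.56% to 9.26%, both without overlap. *Pik3ap1*, at 1.66% to 1.86% and 1.28% to 1.53%, and *Inpp5d*, at 3.19% to 3.53% and 2.77% to 3.04%, were lower relative to these markers as well, and *Plcg2*, at 1.32% to 1.47% and 1.17% to 1.41%, overlapped. The sum of the microglia markers, which divides these shares, was itself lower in LAG-3-/- cord. A gene with the same CPM in both genotypes therefore has a higher share in LAG-3-/- cord. How many of all genes separate on this measure was not counted. These shares are not corrected for length, and what the markers contribute to the differences was not tested.

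Of the other pathway genes, 55 could be tested in cord, of which 2 were called, both lower in LAG-3-/- cord, as were 3.15% of all genes. These were the receptors *Cd200r4*, at 1.08 ± 0.500 against 3.35 ± 0.788 CPM (SD, n = 3; edgeR adjusted p = 0.00371), and *Cd300lb*, at 1.80 ± 0.452 against 4.38 ± 1.29 CPM (edgeR adjusted p = 0.00434). At an adjusted p under 0.1 alone, 25 of the 55 were lower and 1 was higher. Of all genes, 23.9% were lower at that threshold and 47.1% passed in either direction. The median of the 55 was -0.34 against 0.00 over all genes tested.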

How the data were processed

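RNA-seq of 14 LAG-3-sorted, 12 stage and 6 spinal cord libraries was used, grouped by their labels. The authors trimmed reads with Trim Galore 0.6.7, quantified them with Salmon 1.9.0 on GRCm39 and imported them with tximport under R 4.2.1. They deposited estimated counts per Ensembl gene, neither whole nor normalized, which were rounded here. The annotation release is not given in the sources used here. The methods describe a NEBNext Ultra II kit for cord, and the sample labels a SMART-seq protocol. Genes were named from GENCODE vM39, and 71, 66 and 71 identifiers without a name held at most 0.0514% of the counts. Such counts grow with transcript length, so levels are compared between genes only per kb of transcript.

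Each table was fitted in edgeR 4.0.16 (R 4.3.3) with filterByExpr (minimum count 10, total 15), TMM factors and the robust quasi-likelihood test, with Benjamini-Hochberg adjustment over the 16508, 18669 or 17702 genes tested. The threshold was an adjusted p of 0.1, and in the LAG-3-sorted and cord tables also a log2 fold change of 1 in size. The SE was derived from the F statistic, and the 95% intervals are normal approximations from it. They are narrower than the F-test itself implies. A prior count of 2 was used for log2 CPM. The length and GC correction subtracted lowess curves (span 0.3, 5 rounds) fitted to coding genes of at least 10 CPM. DESeq2 1.42.0 and the other alternatives are given at the end. The fits were tested on simulated data.

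Named genes were the 7 members, at most 2 called genes in each direction per pathway list and comparison, the 5 genes most like *Trem2* or *Tyrobp*, and *Lag3*. The members, lists and tests were chosen with earlier results of these data known.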

Additional observations from a re-analysis of the deposited data

Results flagged for a closer look

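Of 21 combinations of a gene and a group of 4 or 5 libraries, 1 held a library far from the others by Dixon's test. *Plcg2* was at 138.3 CPM in LAG-3-high replicate 2, where the other 4 libraries of that group lay between 175 and 182 CPM. Chance marks about 1 in 20 such groups. Its total of 17581334 counts was the median of the group, and its length index of -0.11 lay within the group's range.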

How the results depend on the processing

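Of 1210 values under other settings, 1090 were rated as unchanged. Of these, 949 were log2 fold changes that kept their direction and side of the threshold. The others were counts of called members that moved by at most 1.5 times, even where the genes called changed. Of the log2 fold changes, 53 changed sign, 27 gained and 14 lost the threshold, and 26 counts of called members moved by over 1.5 times. *Hcst* in cord rested on 12 to 27 counts per library, while the other 6 genes had at least 183 in every library. The cause of these changes was not tested.

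After the length and GC correction, 1 member was called for LAG-3-high against WT (*Tyrobp*), 0 for LAG-3-low against WT, 3 for P140 against P120 in LAG-3+/+ (*Plcg2*, *Pik3ap1*, *Inpp5d*) and 2 in cord (*Tyrobp*, *Hcst*). Of all genes, 22.9%, 16.9%, 22.9% and 5.08% were called there in the same order. Log2 fold changes that turned under it were *Hcst* -0.26 between the fractions; *Hcst* 0.56, *Syk* -0.15, *Plcg2* -0.038 and *Inpp5d* -0.0083 for LAG-3-high against WT; *Tyrobp* 0.81, *Hcst* 0.82, *Plcg2* -0.068 and *Inpp5d* -0.24 for LAG-3-low against WT. They were *Trem2* 0.028, *Tyrobp* 0.075 and *Hcst* 0.23 for genotype at P140, *Trem2* 0.039 and *Tyrobp* 0.34 for the interaction, and *Tyrobp* -1.06 in cord.

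Without TMM factors, 4 members were called for genotype at P140, against 12.3% of all genes. *Hcst* (-0.23), *Plcg2* (-0.37), *Pik3ap1* (-0.16) and *Inpp5d* (-0.18) turned between the fractions, *Inpp5d* against WT (-0.0146) and for genotype at P120 (0.019), and *Tyrobp* for the interaction (0.027) and in cord (-0.13). DESeq2 called 6 members for genotype at P140, 1 for stage in LAG-3-/- and 2 for the interaction, against 25.8%, 2.76% and 8% of all genes. It turned *Plcg2* between the fractions (-0.045) and *Trem2* in cord (0.0014), as RLE size factors did (-0.045 and 0.00035). With no filter on low counts, 1 member was called for the interaction, against 0.463% of all genes. In those fits *Hcst* against WT in LAG-3-high was 0.025 and *Tyrobp* in cord -0.026. With sex as a covariate the latter was -0.0078. With no minimum fold, 2, 1 and 2 members passed for LAG-3-high against LAG-3-low, LAG-3-high against WT and LAG-3-low against WT, and 3 in cord. Of all genes, 4.39% passed that threshold between the fractions and 47.1% in cord. Against WT, 27.0% of all genes (LAG-3-high) and 21.9% (LAG-3-low) were called even with the minimum fold. Fitted on the groups compared alone, 2 were called between the fractions (*Plcg2* then -0.061), against 9.9% of all genes. For genotype at P140 such a fit called 0 members and 0% of all genes.

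Leaving out 1 library at a time gave 0 to 1 members called for LAG-3-high against WT, 1 to 2 for LAG-3-low against WT, 1 to 6 for genotype at P140 and 0 to 2 for the interaction. Of all genes, the same fits called 22.1% to 35.0%, 17.5% to 33.2%, 0.47% to 20.2% and 0% to 8.35% in that order. Log2 fold changes that turned ranged from -0.35 to 0.39 for *Hcst* in LAG-3-high against WT, and for LAG-3-low against WT from -0.75 to 0.22 for *Tyrobp*, -0.55 to 0.26 for *Hcst* and -0.0086 to 0.46 for *Inpp5d*. Between the fractions they ranged from -0.033 to 0.40 for *Hcst* and -0.069 to 0.10 for *Plcg2*, and for genotype at P120 from -0.065 to 0.50 for *Hcst* and -0.19 to 0.058 for *Inpp5d*. They were -0.48 to 0.12 for *Tyrobp* in the interaction, -0.31 to 0.11 for *Pik3ap1* with stage in LAG-3-/-, and -0.25 to 0.16 for *Trem2* and -0.20 to 0.18 for *Tyrobp* in cord.

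For no 2 groups did every same-numbered pair of libraries deviate together at r over 0.1, so the replicate numbers were not taken as pairs. Between the fractions all 5 r were positive (0.0139 to 0.198, mean 0.0949, against a mean of -0.0237 for different numbers), and whether these libraries share mice is unknown. With a replicate block the count of called members stayed at 1 between the fractions, 2 for genotype at P140 and 7 for stage in LAG-3+/+. Of all genes, 2.37%, 4.36% and 23.7% were called with that block. *Hcst* in LAG-3-high against WT (0.086) and *Tyrobp* in cord (-0.0025) changed sign.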
